A study of Rattus norvegicus with 6 samples.

Results

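The sites described here are REST-bound regions whose nearest gene codes for a neural adhesion or axon guidance protein. REST is the repressor element 1-silencing transcription factor, and its sites were measured by ChIP-seq in HCN cells, a line cloned from adult rat hippocampus. Members were chosen by name: a site was taken when its nearest gene began with 1 of 23 name stems of these families. Examples of the stems are Cdh, Pcdh, Cntn, Nrxn, Igsf, Slit and Unc5. The rule left out 2 genes with such names. The rule found 50 of the 1775 sites under iQNP conditions and 22 of the 778 sites under TAP conditions. The iQNP members belonged to 32 genes and the TAP members to 15. The tables held no member for several stems of guidance families, namely Robo, Epha, Efna, Efnb, Sema, Plxn and Ntn.

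Both conditions had FGF2 in the medium at 20 ng/ml. TAP cells had no further factor and kept dividing, whereas in iQNP cells BMP4 at 50 ng/ml induced quiescence. There were 2 ChIP libraries and 1 input library for each condition. The first ChIP library of a condition was taken as that of a commercial REST antibody. The second was taken as that of a mix of the homemade antibodies REST14 and REST17. The sample titles number the antibodies without naming them. Wherever an antibody is named below, the names would swap if the numbers ran the other way. All libraries came from this 1 clonal line, with 1 library per antibody and condition, so spread within a condition is spread between reagents, and none of it can be read as spread between cultures. Depths ranged from 25183774 to 29781938 tags. A tag is an aligned read, and the normalized tags used below are tags per 10000000 in the peak window. A site was listed only when peaks of both antibodies overlapped, and TAP tags at iQNP sites without a TAP call were not analysed here.

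REST binds the repressor element 1 (RE1) through its zinc fingers and recruits corepressors that keep neuronal genes low in progenitors and non-neuronal cells. Adhesion and guidance proteins carry out the later work of neurons: cadherins and contactins hold membranes together, neurexins and their partners organize synapses, and Slits, ephrins and netrins steer growing axons through Robo, Eph and Unc5 receptors. Many of these genes are very long, so a site far from the transcription start site (TSS) can still lie inside the gene.

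The genes whose promoters held members in both conditions were Cntnap5b and Cntnap5c, related members of the contactin-associated family, and their promoters are shown because they are the promoter-bound members that RefSeq sequences could be matched to. In the rat build rn4, used for the sites, the centres lay 372 bp and 475 bp upstream of the annotated TSS in iQNP. The RefSeq windows run from 250 bases before to 50 bases after the start in another build, GRCr8, so the deposited distances place both sites upstream of these windows, and whether the differing starts of the builds account for this was not tested. The windows are chr13:18378085-18378384 for Cntnap5b and chr13:3521294-3521593 for Cntnap5c, both on the plus strand. Capitals mark matches to the left part, CAGCACC, and the right part, GGACAG, of an RE1 read on the opposite strand.
Cntnap5b: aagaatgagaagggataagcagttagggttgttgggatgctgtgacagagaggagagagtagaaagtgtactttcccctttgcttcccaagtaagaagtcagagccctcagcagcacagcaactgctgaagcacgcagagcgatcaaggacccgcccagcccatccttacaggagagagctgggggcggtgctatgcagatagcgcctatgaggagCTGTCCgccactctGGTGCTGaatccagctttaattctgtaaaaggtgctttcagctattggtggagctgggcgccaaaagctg
Cntnap5c: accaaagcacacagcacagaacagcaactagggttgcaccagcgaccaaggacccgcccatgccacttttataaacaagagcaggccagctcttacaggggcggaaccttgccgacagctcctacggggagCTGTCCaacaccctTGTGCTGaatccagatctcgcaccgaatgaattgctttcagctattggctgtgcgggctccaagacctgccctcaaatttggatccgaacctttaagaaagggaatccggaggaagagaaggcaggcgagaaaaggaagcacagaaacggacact

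In both windows the parts stood 8 bases apart, against 2 in the usual RE1. The Cntnap5b parts matched exactly and ended 14 bases before the start. In Cntnap5c the CAGCACC part had 1 mismatch and the pair ended 99 bases before the start. Of the 32 genes, 20 had a RefSeq promoter of 300 bases. The exact parts 2 bases apart, searched on either strand, were in 0 of these 20 and in 10 of all 33469 promoters (0.0299%). A spacing of 2 to 9 bases, with at most 1 mismatch in CAGCACC, was chosen after the 2 windows had been read. It was met in 2 of the 20, Cntnap5b and Cntnap5c, and in 194 of all promoters (0.58%). These matches describe letters in a window. The iQNP members whose deposited distance falls within it numbered 0.

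Most members lay away from promoters. Of the 50 iQNP members, 24 were intergenic, 21 were intronic, 3 were at a promoter-TSS and 2 were exonic, and promoter-TSS sites made up 6.0% of the members (95% Wilson interval, 2.06 to 16.2) against 14.8% of all iQNP sites. Members lay a median of 99.7 kb from the TSS, and all iQNP sites 34.2 kb. Sites over 100 kb away were 25 of the 50 members (interval for the share, 36.6 to 63.4%) and 32.2% of all sites. Intergenic sites at that distance were as frequent among members, 24.0%, as among all sites, 24.7%. Intronic sites at that distance were 26.0% of the members and 7.3% of all sites. Of the 21 intronic members, 20 were inside the gene they were named for. The exception was Lrfn3, whose site lay in an intron of another transcript. These intervals cover counting error only, and sites of 1 gene are not independent.

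Tag levels of the members were spread widely. Mean normalized tags of the iQNP members ranged from 6.04 to 256.4 with a median of 18.9, and the median of all iQNP sites was 17.9. TAP members had a median of 12.4, with 12.6 over all TAP sites. The commercial antibody gave more normalized tags than the homemade mix at 47 of 50 iQNP members, against 83.3% of all iQNP sites, and at 15 of 22 TAP members, against 73.4% of all TAP sites. Pearson's r between commercial and homemade tags across members was 0.97 in iQNP (n = 50) and 0.93 in TAP (n = 22). Both libraries of a condition share 1 input and only sites found with both were listed, so these correlations are a description. In the plot of tags by library, all 4 symbols of a shared site can be followed along its line.

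**Figure D1:**
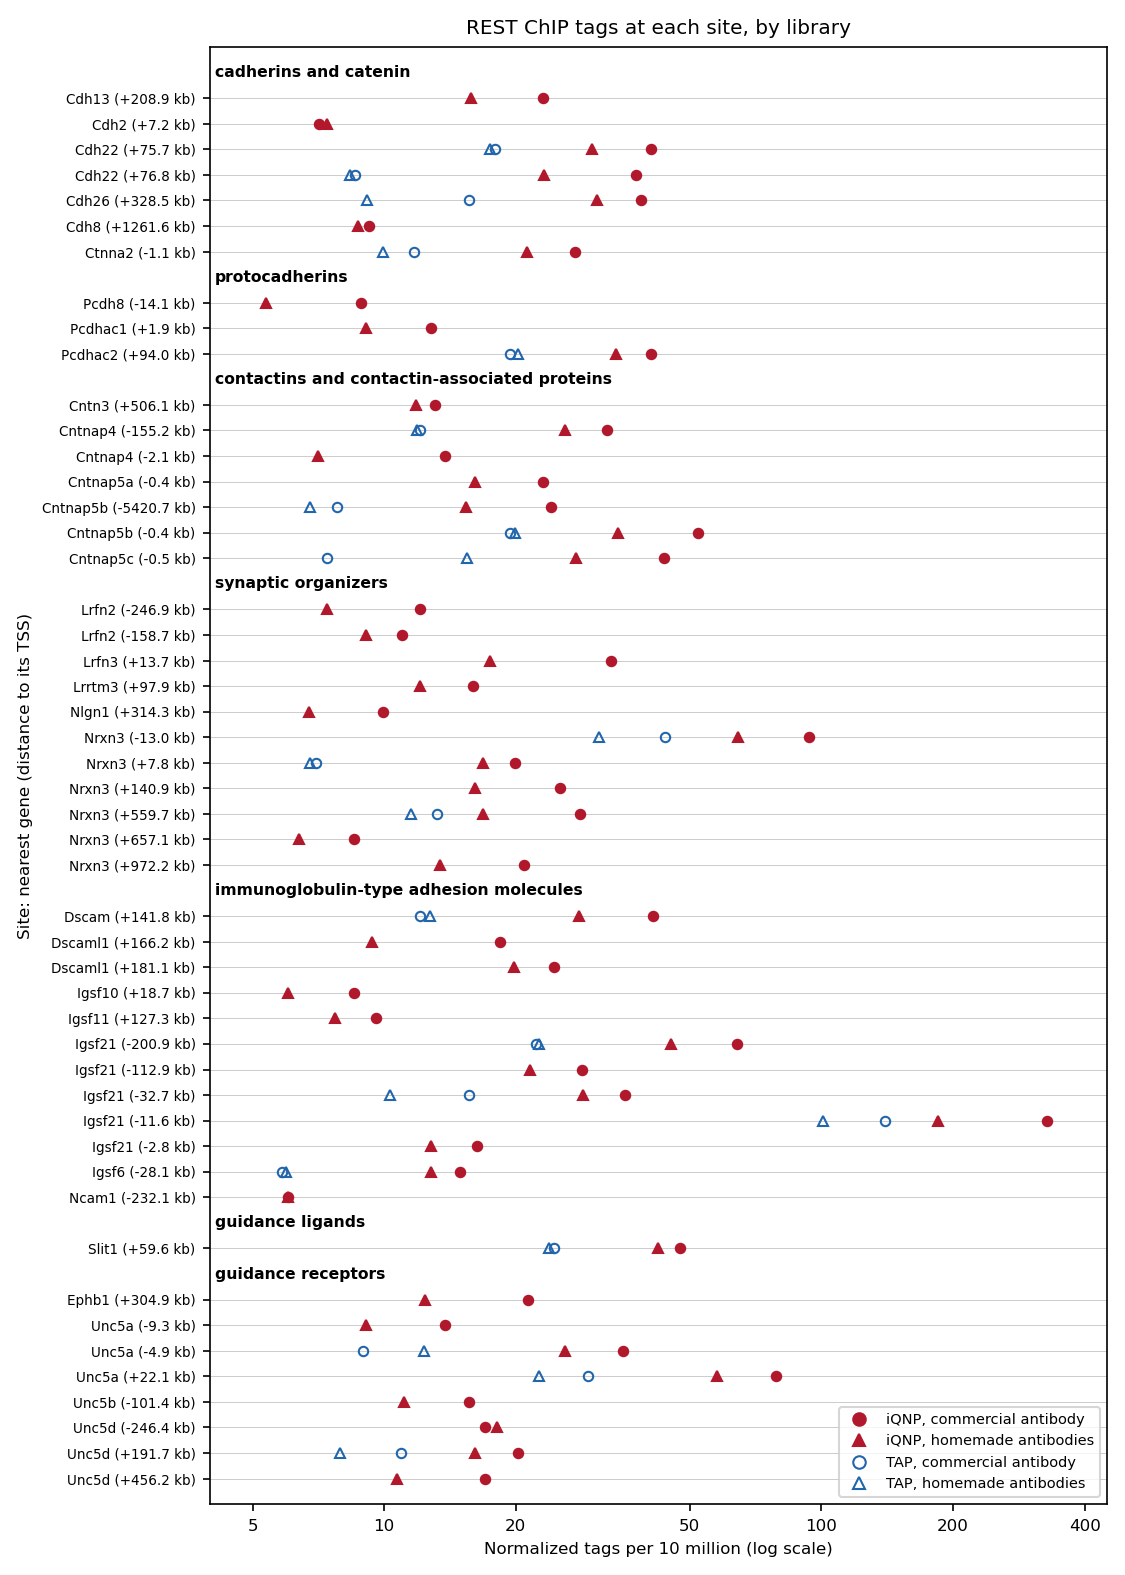
Normalized tags per 10000000 (log axis) at 49 of the 50 iQNP sites, grouped by the role of the nearest gene, with filled red symbols for iQNP and open blue symbols for the 21 of these that also had a TAP site; circles are the commercial and triangles the homemade antibodies. Each point is 1 library. The Igsf21 site 11.6 kb upstream stands at the far right with 327.8 and 185.0 tags in iQNP, and at every site with blue symbols both lie to the left of both red symbols. Both TAP libraries were also below both iQNP libraries at 93.0% of all 756 shared sites.

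With centres within 50 bp taken as the same site, 22 of the 50 iQNP members had a TAP site, 44.0% (95% Wilson interval, 31.2 to 57.7), and the share over all iQNP sites was 42.6%. The share of members was thus near that of all sites. All 22 TAP members had an iQNP site, and of all TAP sites 97.2% did. The paired sites had the same gene name in 22 of 22 cases, and their centres were a median of 11.5 bp apart, against 12 over all pairs. All 15 genes with a TAP member also had an iQNP member, and the other 17 genes had one in iQNP alone. Over all sites too the TAP genes were fewer, with 650 genes in TAP and 1368 in iQNP.

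Among the cadherins, which join cells through calcium-dependent contacts, and their catenin partner Ctnna2, 7 iQNP sites fell to 6 genes and 4 had a TAP site. Cdh22, a brain cadherin, had a pair of sites in intron 3 only 1.12 kb apart. The first, 75.7 kb into the gene, had 40.8 normalized tags for the commercial antibody and 29.9 for the homemade mix in the iQNP libraries, and its TAP libraries had 17.9 and 17.5. Pairs of values below keep this order. The second, 76.8 kb in, had 37.6 and 23.2 in iQNP and 8.56 and 8.34 in TAP. The sites were close in iQNP, while in TAP the second stood at less of its neighbour's level, and the log2 ratios of iQNP to TAP were 1.00 and 1.85. Ctnna2 codes for the neural alpha-catenin that ties cadherins to actin. Its site lay 1126 bp upstream of the TSS and had 27.3 and 21.2 tags in iQNP and 11.7 and 9.93 in TAP. Cdh26, a cadherin not known chiefly from neurons, had 38.7 and 30.6 tags in iQNP and 15.6 and 9.13 in TAP, 328.5 kb from its TSS. The iQNP libraries were above the TAP libraries at all 4 shared sites, as they were at 93.0% of all shared sites.

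The cadherin members without a TAP site were mostly weaker. Cdh2, the N-cadherin of neural progenitor junctions, had 7.09 and 7.39 tags at a site in intron 3, 7.18 kb from its TSS. The site of Cdh8, a cadherin of synaptic targeting, had a mean of 8.98 tags and lay 1.26 Mb from the TSS. Cdh13, which codes for a cadherin anchored to the membrane by lipid, was the highest of the 3 with a mean of 19.5 in intron 1.

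The protocadherins give neurons surface identities, and 3 genes had 1 site each. Pcdhac2, a C-type member of the clustered alpha protocadherins, had 40.8 and 33.9 tags in iQNP and 19.4 and 20.2 in TAP, 94.0 kb from its TSS. Its cluster neighbour Pcdhac1 had 12.8 and 9.07 tags in iQNP at a site in exon 1, with no TAP site. The genes of this cluster share their last exons, so the nearest TSS names 1 of several overlapping transcripts. Pcdh8 had a mean of 7.12 tags and no TAP site.

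The contactin-associated proteins are membrane proteins built like neurexins, and they held all 3 promoter-TSS members. Cntnap5b had 52.1 and 34.2 tags in iQNP at its promoter, whose sequence is given above (rn4 chr13:7714168-7714222), and its TAP tags were 19.4 and 19.9. Cntnap5c had 43.6 and 27.5 in iQNP (rn4 chr13:22855728-22855781). In TAP its antibodies differed more than at any other member, with 7.39 and 15.5, so that the commercial antibody fell below the homemade mix by 1.07 on the log2 scale. Cntnap5a, bound 410 bp upstream of its TSS, had 23.1 and 16.1 tags in iQNP and no TAP site. The 3 paralogs were thus ordered Cntnap5b, Cntnap5c, Cntnap5a by mean tags in iQNP, at 43.2, 35.6 and 19.6, but the libraries of Cntnap5b and Cntnap5c overlapped.

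A second site named for Cntnap5b lay 5.42 Mb upstream, farther from a TSS than any other iQNP site. It had 24.1 and 15.4 tags in iQNP and 7.78 and 6.75 in TAP. A site at this distance is tied to the gene only by the absence of a nearer TSS in the annotation. Cntnap4 had a site 155.2 kb upstream with 32.3 and 25.9 tags in iQNP and 12.1 and 11.9 in TAP. Its nearer site, 2121 bp upstream, was lower at 13.8 and 7.05 tags and had no TAP site. Cntn3, a contactin, had a single site with a mean of 12.5 tags, also without one in TAP.

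The synaptic organizers carried 12 sites in 6 genes, and 6 of these sites belonged to Nrxn3. Neurexins are presynaptic receptors that bind neuroligins, LRRTM proteins and other postsynaptic partners. The strongest Nrxn3 site lay 13.0 kb upstream of the TSS (rn4 chr6:112260896-112260964) and had 93.6 and 64.5 tags in iQNP and 43.9 and 31 in TAP. Inside the gene, the site in intron 1 had 19.9 and 16.8 tags in iQNP and 7.0 and 6.75 in TAP. The site in intron 7, 559.7 kb from the TSS, had 28.0 and 16.8 in iQNP and 13.2 and 11.5 in TAP. These 3 were the Nrxn3 sites with a TAP site.

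The other Nrxn3 sites were called in iQNP alone. In intron 4 the tags were 25.2 and 16.1, in intron 9 they were 8.51 and 6.38, and in intron 16 they were 20.9 and 13.4. The intron 4 site had more mean tags in iQNP, 20.7, than the shared intron 1 site, 18.4, and these libraries overlapped. The 6 sites spanned 985.2 kb, and the upstream site held 47.9% of their summed tags in iQNP.

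Of the postsynaptic organizers, Lrfn2 had 2 sites upstream, 246.9 kb away with 12.1 and 7.39 tags and 158.7 kb away with 11.0 and 9.07. Lrfn3, Lrrtm3 and Nlgn1 had 1 site each, with means of 25.3, 14.1 and 8.33 tags. The 5 sites of these 4 postsynaptic genes had no TAP site, while 42.6% of all iQNP sites had one. All but the Lrfn3 site had mean tags of at most 15. Among all iQNP sites, 5 of 417 up to 10 tags and 39 of 324 from 10 to 15 tags were shared. Over 25 tags, the class of the Lrfn3 site, it was 470 of 571. A difference between presynaptic and postsynaptic genes was not tested.

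The immunoglobulin-type members included the strongest site of all. Igsf21 codes for an adhesion protein that organizes inhibitory synapses through neurexins, and its 5 sites all lay upstream of the TSS over 198.1 kb. The site 11.6 kb upstream (rn4 chr5:159159588-159159639) had 327.8 and 185.0 tags in iQNP and 139.6 and 100.8 in TAP. By mean tags this site was number 4 of the 1775 iQNP sites and number 8 of the 778 TAP sites. Its fold over input in iQNP, 979.5 for the commercial antibody and 1104.6 for the homemade mix, had the highest mean of all iQNP sites, and scaled input tags there were only 0.9 and 0.5.

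The other Igsf21 sites were several-fold lower. At 200.9 kb upstream the tags were 64.2 and 45.3 in iQNP and 22.2 and 22.6 in TAP. The site 32.7 kb upstream had 35.5 and 28.5 in iQNP and 15.6 and 10.3 in TAP. These sites were also called in TAP, while the sites 112.9 kb upstream, with 28.4 and 21.5 tags, and 2.78 kb upstream, with 16.3 and 12.8, were called in iQNP alone. The site nearest the TSS was thus the weakest of the 5, and the site 11.6 kb upstream held 67.0% of the summed tags.

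Dscam and Dscaml1 are recognition molecules through which neurites of 1 cell avoid each other. Dscam had 1 site in intron 7 with 41.1 and 27.9 tags in iQNP and 12.1 and 12.7 in TAP. Dscaml1 had 2 sites in intron 3, 14.9 kb apart, with 18.4 and 9.4 tags at the first and 24.5 and 19.8 at the second, and neither had a TAP site. Ncam1, the neural cell adhesion molecule, had the weakest iQNP member at 6.03 and 6.04 tags, 232.1 kb upstream. Igsf6, known chiefly from immune cells, had 14.9 and 12.8 tags in iQNP and 5.83 and 5.96 in TAP, which was the weakest shared member. Igsf10 and Igsf11 had means of 7.28 and 8.65 and no TAP site. The name rule takes in Igsf6, Igsf10 and Cdh26 although they are not chiefly neural genes, and without them 20 of 47 iQNP members had a TAP site.

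The guidance members were 1 ligand and 4 receptors. Slit1, a secreted repellent of Robo receptors, had a site in intron 1 (rn4 chr1:246904768-246904818) with 47.5 and 42.3 tags in iQNP and 24.5 and 23.8 in TAP. Unc5 proteins are netrin receptors that mediate repulsion. Unc5a was bound in intron 2, 22.1 kb from the TSS (rn4 chr17:15702781-15702859), with 78.8 and 57.7 tags in iQNP and 29.2 and 22.6 in TAP. Its site 4889 bp upstream had 35.1 and 25.9 in iQNP and 8.94 and 12.3 in TAP. Another site, 9347 bp upstream, had 13.8 and 9.07 in iQNP and no TAP site, so that the 3 Unc5a sites were called in TAP in the order of their tags.

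At Unc5d too the shared site had the most tags, although its libraries overlapped with those of both other sites. The site in intron 1, 191.7 kb from the TSS, had 20.2 and 16.1 tags in iQNP and 10.9 and 7.94 in TAP. The site 246.4 kb upstream had 17.0 and 18.1 tags, and no TAP site. The site in intron 6 had 17.0 and 10.7 and no TAP site. Unc5b and the ephrin-B receptor Ephb1 had 1 site each with means of 13.4 and 16.9, without a TAP site.

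**Figure D2:**
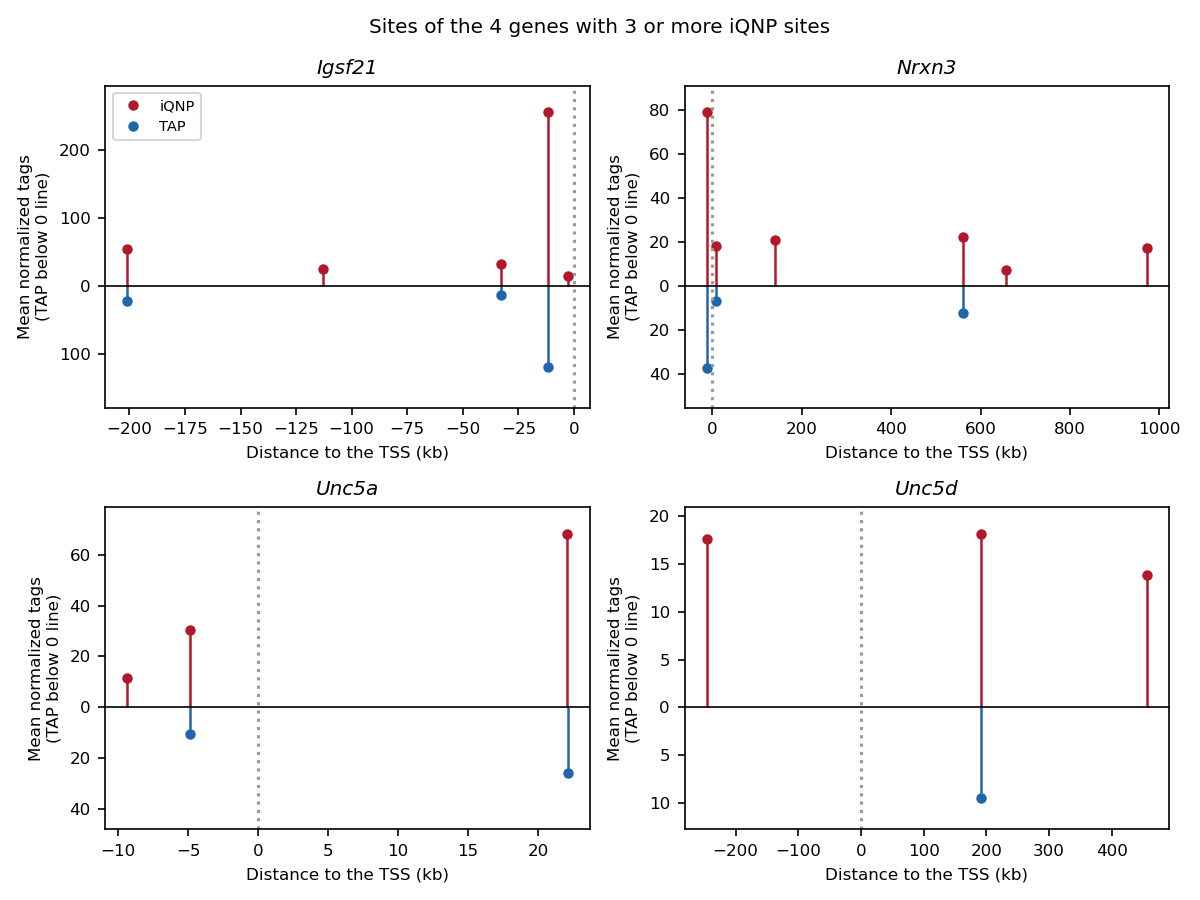
Mean normalized tags of both antibodies (iQNP upwards in red, TAP downwards in blue) against the distance to the TSS in kb, for the 4 genes with 3 or more iQNP sites. The dotted line is the TSS, and the axes differ between panels. The Igsf21 panel is led by 1 site 11.6 kb upstream with 256.4 tags in iQNP and 120.2 in TAP, while the 3 Unc5d sites lie between 13.9 and 18.2.

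Some genes of these families had several sites. Of the 32 genes, 9 had 2 or more iQNP sites (28.1%), against 19% of the 1368 genes with an iQNP site, and these 9 genes held 27 of the 50 members. The difference between these shares of genes was not tested. In Cdh22 and Cntnap5b all sites were shared with TAP, and in Dscaml1 and Lrfn2 no site was. In the other 5 genes, Igsf21, Nrxn3, Unc5a, Unc5d and Cntnap4, some sites were shared, and in each the site with the most iQNP tags was among them. Of the 23 genes with 1 iQNP site, 8 kept a site in TAP. Such counts were not made for all genes with an iQNP site. Over all sites, sharing also rose with tags in iQNP, from 1.2% up to 10 tags to 82.3% over 25.

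Whether a member was also called in TAP went with its tags in iQNP. Shared members had a median of 33.3 normalized tags in iQNP and the others 12.9, a median log2 difference of 1.37. Among members with over 25 tags, 16 of 17 had a TAP site (94.1%, interval 73.0 to 99.0), and over all sites 82.3% did. The exception was Lrfn3, with 33.0 and 17.5 tags. From 15 to 25 tags 5 of 13 members had a TAP site, against 242 of 463 over all sites, and from 10 to 15 tags it was 1 of 11, the site of Igsf6, against 39 of 324. Up to 10 tags it was 0 of 9, which allows a share of up to 33.3% when 3 counts are taken as the limit (the Wilson interval ends at 29.9%), while over all sites it was 5 of 417. The intervals of members and all sites overlapped in every class. By distance, 6 of 12 members within 10 kb of the TSS were shared, against 39.3% of all such sites, and 9 of 13 from 10 to 100 kb, against 46.8%. Over 100 kb it was 7 of 25 (28.0%, interval 14.3 to 47.6), against 41.9%.

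**Figure D3:**
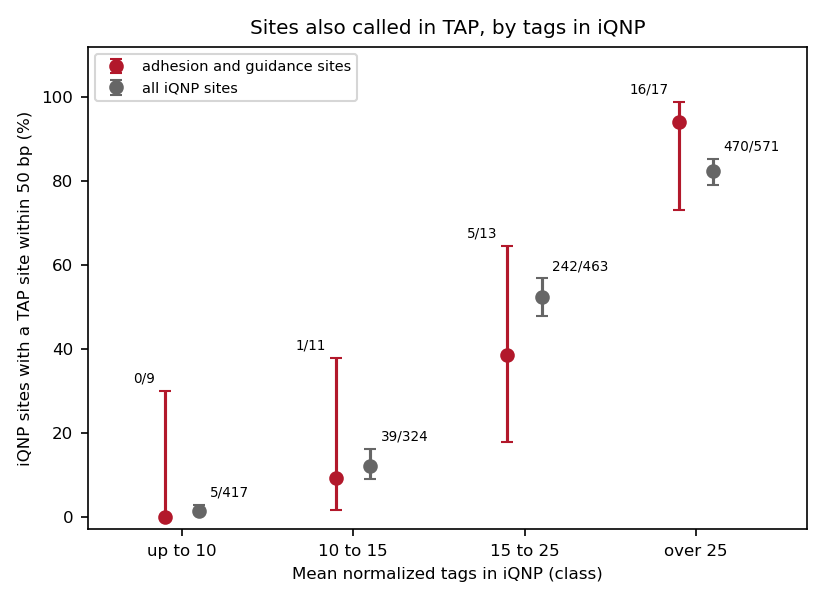
Percent of iQNP sites with a TAP site within 50 bp, by class of mean normalized tags in iQNP, for the adhesion and guidance members (red) and all iQNP sites (grey). Bars are 95% Wilson intervals, and the fractions give the counts. The share rises from 0 of 9 to 16 of 17 among members and from 5 of 417 to 470 of 571 among all sites.

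At the 22 shared members, both iQNP libraries had more normalized tags than both TAP libraries in 22 of 22 cases. Over all 756 shared sites the libraries were apart in this direction at 93.0%. Members had a median log2 ratio of 1.28 between the conditions, with quartiles of 1.08 and 1.47, and all shared sites had 1.05. Among members the median was 1.39 for the commercial antibody and 1.08 for the homemade mix. Of the members, 17 of 22 were above the median of all shared sites. Shared sites had to be called in TAP, so the ratios leave out sites that fell below the calling limit there, and a shift that touches all sites alike, such as a difference in the yield of the ChIP, cannot be told apart from more REST at each site.

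**Figure D4:**
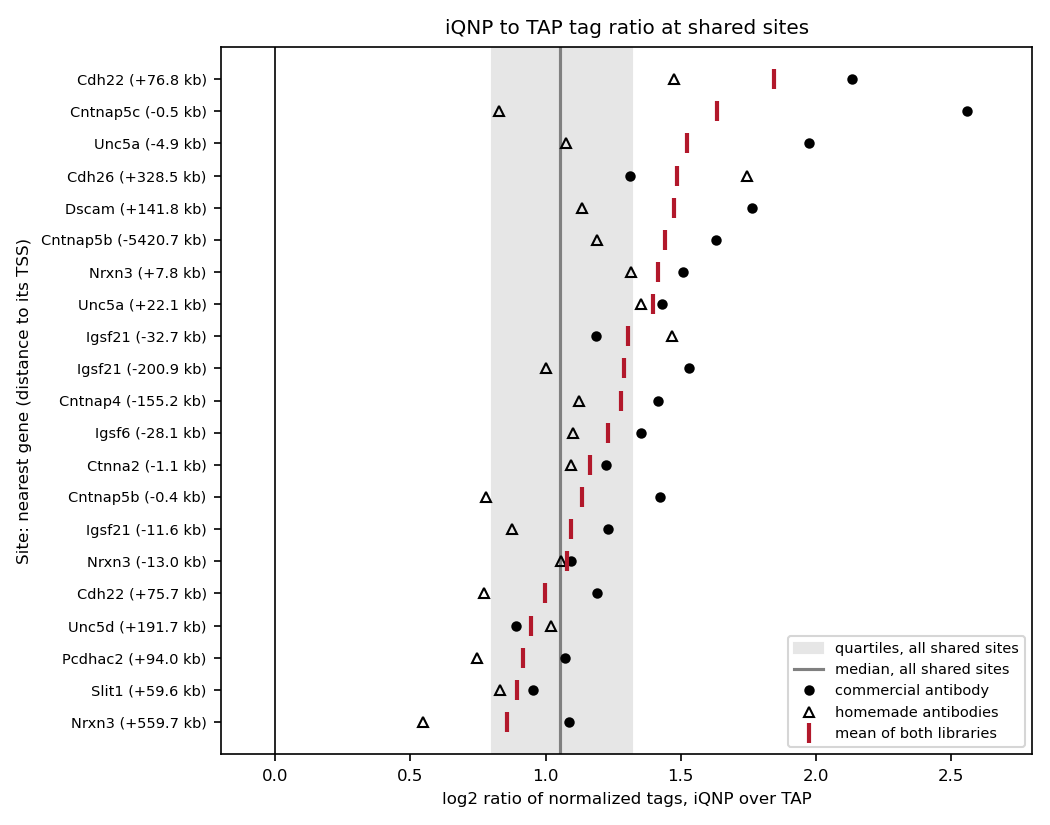
Log2 ratio of normalized tags in iQNP over TAP at shared members, for the commercial antibody (circles), the homemade antibodies (triangles) and the mean of both libraries (red bars). The grey line and band are the median, 1.05, and the quartiles of all 756 shared sites. Of the 22 members 21 are drawn. All symbols lie above 0, and the Cdh22 site 76.8 kb into the gene has a red bar at 1.85.

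By edgeR's quasi-likelihood test with adjustment over all shared sites, 20 of the 22 members had more tags in iQNP and 0 had fewer, also at an unadjusted p under 0.05, and 68.4% of all shared sites passed in the same direction. The passing sites were 4 of 4 of cadherins and catenin, 1 of 1 of protocadherins, 4 of 4 of contactin-associated proteins, 4 of 4 of synaptic organizers, 4 of 5 of immunoglobulin-type molecules and 3 of 3 of guidance receptors. The Cdh22 site 76.8 kb into the gene changed by 1.84 ± 0.41 (SE) on the log2 scale (edgeR, adjusted p = 0.00022) and Cntnap5c by 1.63 ± 0.41 (adjusted p = 0.0010). The members that missed the threshold were the strong Igsf21 site, at 1.09 ± 0.53 (adjusted p = 0.056), and Slit1, at 0.89 ± 0.42 (adjusted p = 0.051). With the antibody as a block, both passed (edgeR, adjusted p = 5.31e-05 and 1.03e-05), as did 94.8% of all shared sites.

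The calls rest on the depths as the scale and on both TAP libraries. Leaving out the TAP library of the commercial antibody, or that of the homemade antibodies, left 0 of 22 members and 0 of all 756 shared sites past the threshold, with member medians of 1.30 and 1.19. Scaling by TMM on these sites, under which the typical shared site shows no change, moved the median of all shared sites from 1.05 to -0.01 and that of the members to 0.23. On that scale 2 of 22 members had more tags in iQNP, among them the Cdh22 site 76.8 kb in at 0.78 (edgeR, adjusted p = 0.019), and 5.16% of all shared sites did.

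Fold over input gave another order. Its median log2 ratio of iQNP to TAP was 0.73 among the shared members and 0.81 over all shared sites. This ratio was below 0 at 5 of 22 members and at 25.8% of all shared sites. Among the 5 were the Cdh22 site 76.8 kb into the gene (mean -0.14), Cntnap5c (mean -0.48) and Igsf6 (mean -0.29). The first of these had the higher Cdh22 ratio of tags. With both antibodies the ratio of folds was below 0 at 2 members, Slit1 (mean -1.95) and the Nrxn3 site in intron 7 (mean -1.61), and at 20.5% of all shared sites. Slit1 had a fold over input of 28.4 and 25.3 in iQNP and of 139.3 and 67.7 in TAP, although its tags were higher in iQNP. Its scaled input tags were 4.7 and 5.0 in iQNP and only 0.5 and 0.9 in TAP. At the Nrxn3 site in intron 7 scaled input tags were 3.8 and 2.0 in iQNP and 0.5 and 0.4 in TAP. The TAP folds of both sites rest on very few input tags. Few input tags also lay under ratios above 0. At the Cntnap5b promoter, with a ratio of 3.79, scaled input tags were 0.9 and 1.0 in iQNP and 5.4 and 5.3 in TAP. In iQNP 15 of 50 members, and 25.6% of all sites, had scaled input tags of at most 1 with either antibody. Whether enrichment over input differed between the conditions was not tested.

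Further genes of the same pathways were taken from a list of 70 names outside the rule. The list holds older and newer names of some genes, such as Lphn and Adgrl or Odz and Tenm, so it covers fewer genes than names. Of the names, 17 had an iQNP site and 11 a TAP site. They had 30 sites in iQNP, of which 15 were shared, against 42.6% of all iQNP sites. The highest was Celsr3, an atypical cadherin needed for axon tracts, with a mean of 98.9 tags in iQNP and 83.0 in TAP, and its nearest site was 97 bp from the TSS. L1cam, an adhesion molecule of growing axons, had a mean of 72.3 in iQNP and 35.2 in TAP at a site 386 bp from the TSS. Crmp1, which relays semaphorin signals, had means of 44.3 in iQNP and 25.9 in TAP at its top sites. Dcc, the netrin receptor that pairs with Unc5 proteins, had 3 iQNP sites, the highest with 23.2 tags, and 1 TAP site with 8.05. Reln, the secreted guidance protein reelin, and Dab1, its adaptor, had top sites of 15.8 and 32.1 tags in iQNP and 10.4 and 8.07 in TAP.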

How the data were processed

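REST ChIP-seq of HCN cells under iQNP and TAP conditions was analysed from the deposited peak tables. The authors aligned single-end reads to rn4 with Bowtie2, used HOMER to call peaks in each library, with a p-value over input of at most 1e-04, and kept peaks of both antibodies within 50 bp; versions were not given in the sources used here. Per the file headers, total tags are counts, normalized tags are a signal scaled by the authors to 10000000 tags, input tags are a signal scaled to the depth of each ChIP library, and fold over input is a ratio; the deposited tables also hold a focus ratio, a fraction. Column blocks were tied to antibodies by matching the number in their header to that in the sample titles, which do not name the antibody. Annotation to genes came from the study's tables of sites, less 1 repeated line in each condition.

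Library depth is the ratio of total to normalized tags. Sites were paired one to one, closest first. For counts at the 756 shared sites, edgeR's quasi-likelihood test was run (version 4.0.16 in R 4.3.3; depths as library sizes, Benjamini-Hochberg adjustment); p-values measure only the spread between antibodies. On simulated data for this comparison over 756 sites, with 200 changed, 61% of changes of 1 and 100% of changes of 2 (log2) were recovered. Of all calls there, 3.59% fell on unchanged sites. Other steps used Python 3.11.15 and scipy 1.17.1. Full values were given for sites of genes with 2 or more members, within 10 kb of the TSS, shared, or among the 5 highest per condition. The sites of 1 gene are in the counts but not reported here. The members, role groups and lists were chosen with earlier results of these data known. DESeq2 (version 1.42.0), TMM, a minimum of 20 tags, the antibody block, other distances, stricter limits and single libraries were the alternatives.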

Additional observations from a re-analysis of the deposited data

How the results depend on the processing

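Of 34 alternative values for 7 results, 25 stayed within their limits and 9 moved. The limit was a fixed factor for counts and the spread between antibodies for other values. Counts and tag levels could not turn direction by this rule. The log2 ratio at shared members and the log2 difference between members with and without a TAP site could, and neither did. The number of shared members was 22, and lay between 16 (centres within 25 bp) and 26, the latter with sites inside a gene of these names, an alternative chosen after seeing the data. Without Cdh26, Igsf6 and Igsf10, also chosen after seeing the data, there were 20 shared members and 18 with more tags in iQNP. Members with more tags in iQNP numbered 20 by edgeR (68.4% of all shared sites), 22 with the antibody as a replicate block (94.8%), 2 with TMM (5.16%), and 0 by DESeq2 with its own size factors (0.397%), where 8 adjusted p-values were not given. With the depths as size factors DESeq2 called 20 (67.3%). Leaving out 1 library gave 0 to 22 (0% to 94.7%), where the lone library is assumed to vary like the others. The antibody number is shared by the conditions; the deviations of same-numbered libraries had a correlation of 0.047 over shared sites, so the pairing rests on the reagent alone, and the block lowered edgeR's coefficient of variation from 0.21 to 0.090. The median log2 ratio at shared members, 1.28, was 0.23 with TMM and 0.73 on fold over input, and 1.08 to 1.39 with either antibody alone. The difference between members with and without a TAP site, 1.37, was 0.72 on fold over input and 1.38 to 1.47 with either antibody alone. Genes with an iQNP member numbered 32, of which 26 had one inside a transcript or within 100 kb and 11 had one within 10 kb. The cause of these moves was not tested. Depth limits the weakest sites: the lowest iQNP member rests on 17 and 18 tags, and the lowest TAP member by mean tags on 15 and 15.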

Other observations

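Some sites inside adhesion and guidance genes were named for another nearest gene, and the name rule left them out. There were 6 in iQNP and 4 in TAP. Introns of Cdh13 held 2 sites named for Hsbp1, with mean tags of 133.9 and 22 in iQNP, where their TAP sites had 74.95 and 13.4. The stronger would have been second only to the Igsf21 site 11.6 kb upstream among the members. An intron of Unc5c, a further netrin receptor, held a site named for Bmpr1b with 28.4 tags in iQNP and 9.82 in TAP. An intron of Dscaml1 held a site named for Bace1 with 24.2 in iQNP and 8.83 in TAP, although both Dscaml1 members were called in iQNP alone. Introns of Nrxn2 and Ncam1 held sites named for Slc22a12 and Ttc12, with 16.5 and 8.32 tags in iQNP and no TAP site. With these sites 56 were counted in iQNP, of which 26 had a TAP site.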
